A study of Mus musculus with 19 samples.

Results

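Intermediate progenitors and projection neurons of the cerebral cortex are defined by a small set of transcription factors. Here 9 of their genes, Eomes, Tbr1, Fezf2, Bcl11b, Cux1, Cux2, Sox5, Sox4 and Sox11, were followed through maps of open chromatin from the embryonic mouse forebrain. A peak summit was given to one of these genes when that gene had the nearest end (start or finish) of any protein-coding gene on GRCm38, within 100 kb. The 9 genes are members of a set of 21887 protein-coding genes. They held 2336 of 1547369 deposited summits, and 628 of 553128 when every library was reduced to its 29112 best-scoring summits. Summits at most 200 bp apart were chained into regions kept when seen in at least 2 libraries, which gave 56 of 44878 regions in the equal-length lists and 227 of 150489 over all deposited summits.

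The libraries come from ATAC-seq, which maps accessible DNA by where a transposase can cut, of Prom1+ progenitors taken with magnetic beads from E14 mouse forebrain. The question is how retinoic acid from the meninges bears on neurogenesis. Its 19 libraries form 4 groups: 4 controls (Foxc1 WT, no diet), 4 mutants (Foxc1 hith/LacZ, no diet), 5 RA diet controls (Foxc1 WT) and 6 RA diet mutants (Foxc1 hith/LacZ). The mutant genotype joins 2 alleles of Foxc1, a transcription factor gene needed for the forebrain meninges, and is constitutive, so any embryonic tissue that uses Foxc1 is affected. Mutant 1 carries the genotype label Foxc1 WT although its title calls it a mutant, and each mutant was left out in turn for that reason too. No label ties a library to an animal or litter, so the p-values describe only the spread among libraries, which may be technical.

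In the embryonic cortex, radial glia divide at the ventricle and give rise to intermediate progenitors, which switch on the T-box factor Eomes (Tbr2) and divide again into neurons. Deep-layer neurons then use Tbr1, Fezf2, Bcl11b (Ctip2) and Sox5, which together sort corticothalamic from subcerebral projection neurons. Upper-layer neurons use the homeodomain factors Cux1 and Cux2, and the SoxC factors Sox4 and Sox11 promote neuronal maturation in newborn neurons of all layers.

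Only Sox4 and Sox11 had a summit in the window from 250 bases before to 50 bases after the listed start in all 19 libraries. Their upstream sequences are therefore shown, with that of Eomes, whose window held a summit in 1 library of the equal-length lists and in 2 over all deposited summits. Each is the 250 bases before the listed start, 5′ to 3′ on the gene's strand, from RefSeq on GRCm38.p6. Capitals mark matches on either strand to CAGCTG (an E-box bound by basic helix-loop-helix factors), AGGTCA (a half-site of nuclear receptors, a family that includes the retinoic acid receptors) and CCAAT (a box of many promoters).
Sox4, chr13:28953700-28953949, minus strand: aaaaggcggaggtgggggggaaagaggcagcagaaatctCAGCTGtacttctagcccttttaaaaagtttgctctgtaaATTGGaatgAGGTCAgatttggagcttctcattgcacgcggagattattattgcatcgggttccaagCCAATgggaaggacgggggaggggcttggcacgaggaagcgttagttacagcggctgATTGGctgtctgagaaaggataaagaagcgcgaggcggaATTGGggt
Sox11, chr12:27342719-27342968, minus strand: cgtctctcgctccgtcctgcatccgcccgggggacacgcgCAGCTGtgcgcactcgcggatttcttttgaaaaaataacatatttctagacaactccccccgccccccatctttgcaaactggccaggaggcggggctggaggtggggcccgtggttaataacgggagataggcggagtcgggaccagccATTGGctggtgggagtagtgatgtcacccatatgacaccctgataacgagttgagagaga
Eomes, chr9:118477939-118478188, plus strand: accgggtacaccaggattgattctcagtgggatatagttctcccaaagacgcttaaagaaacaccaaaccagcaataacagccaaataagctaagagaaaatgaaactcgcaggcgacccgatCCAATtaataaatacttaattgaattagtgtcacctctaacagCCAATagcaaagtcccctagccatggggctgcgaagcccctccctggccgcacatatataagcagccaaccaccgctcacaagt

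A CAGCTG lay 211 to 206 bases before the start of Sox4 and 210 to 205 bases before that of Sox11. The same letters occurred in 16.3% of 32851 promoter windows, each 300 bases long, of which the sequences shown are the first 250 bases. CCAAT or its reverse complement was found 4 times before Sox4, once before Sox11 and 2 times before Eomes, and in 37.4% of all windows. AGGTCA was found before Sox4, and in 16.3% of all windows. Of the other motifs searched on both strands, AACAAT (a SOX-type core) was present in the Tbr1 window (10.7% of all windows). CAGATG (17.2%) and ATCGAT (0.925%) were present in 1 of the 2 Cux2 windows. AGGTGTGA (1.28%, a T-box element) and GTGGGAA (6.38%, an Rbpj-type site) were in none of the 10 member windows. A match describes the letters and is not a measured binding site.

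The promoter summits of Sox4 and Sox11 lay close together in most libraries. For Sox11 they lay from 96 bases upstream to 39 bases downstream of the listed start, with a median of 62 upstream. Their ranks by score ran from 2575 to 7030 (median 3749), where rank 1 is the highest score of a library. For Sox4 they lay from 124 bases upstream to 34 downstream, with a median of 3 downstream, and their ranks ran from 2102 to 6258 (median 4024). The Fezf2 window held a summit in 4 libraries and a Cux2 window in 2, up to 248 and 225 bases upstream. The Tbr1 window held none in the equal-length lists and 4 over all summits, at ranks of 48288 or worse. The windows of Bcl11b, Cux1 and Sox5 held none, and the listed Sox5 start lies inside the 954 kb gene. Regions outside these windows but within 1 kb of the 5′ gene end of Bcl11b, Cux1 and Sox5 are given below.

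**Figure D1:**
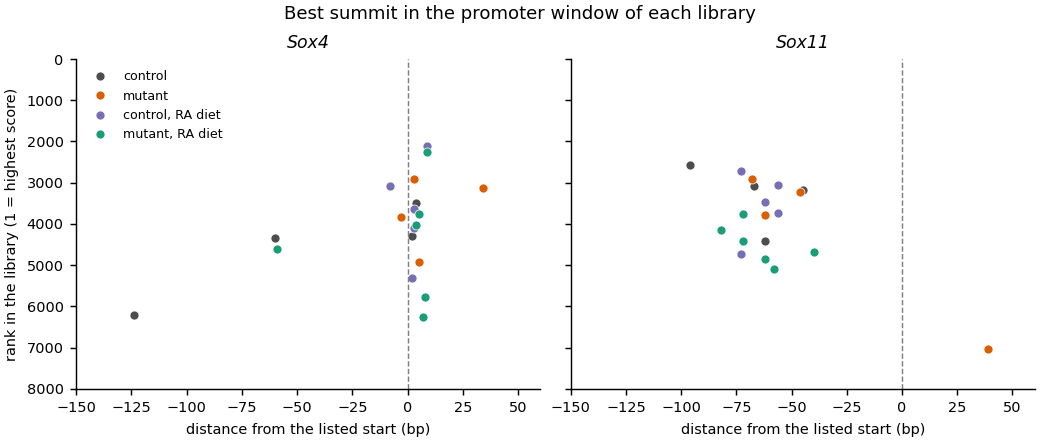
Position of the summit in the promoter window of Sox4 and Sox11 (x, distance from the listed start in bp, negative is upstream) and its rank within the library (y, 1 is the highest score), 1 point for each of the 19 libraries, coloured by group. The Sox11 points cluster around 62 bp upstream, apart from mutant 3 at 39 bp downstream, and most Sox4 points lie at the start itself.

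The labelled cell type was checked against its markers. All 19 libraries had a summit no further than 1 kb from an end of 7 of 10 radial glia markers (Sox2, Hes5 and Vim among them). Prom1, the marker by which the cells were taken, Pax6 and Nes had one in some libraries only. All 19 libraries also had one for 4 of 8 neuron markers (Tubb3, Map2, Neurod6 and Snap25). The same held for 1 of 5 endothelial markers (Kdr) and for none of the 6 interneuron, 5 microglial, 5 meningeal and 4 erythroid ones. Among all protein-coding genes the share was 36.6%. Summed over a list, neuron markers had 19 to 22 summits in controls and 19 to 25 in mutants, and 22 to 34 and 22 to 28 in the respective diet groups, and its part in the results was not tested. Deposited lists held 29112 to 122591 summits. Mutants 3 and 4 and mutant 4 on the diet stood apart: their median share of regions found again in another library was 61.5%, 60.8% and 60.9%, against 66.1% to 73.0% in the others. In mutant 6 on the diet 36.2% of summits lay near gene ends, against 30.2% to 34.8% elsewhere. In bulk libraries, fewer cells of a type and less open chromatin per cell cannot be told apart.

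In the equal-length lists, regions of the 9 genes were less often shared by all libraries than regions at large. Of their 56 regions, 11 (19.6%) were present in all 19 libraries, while over all regions it was 29%. A further 27 (48.2%) were present in at most 9 libraries, against 38.9% of all regions. Only 10 regions (17.9%, against 26.2%) lay within 1 kb of a gene end. Sox4 and Cux2 each had 3 regions in all libraries, Bcl11b and Sox11 had 2 each and Fezf2 had 1. Eomes, Tbr1, Cux1 and Sox5 had none. Over all deposited summits, 21 of 227 regions (9.25%) were in all libraries, against 12.4% of all regions. There the share in at most 9 libraries went the other way, at 48.5% of member regions against 52.2% of all regions.

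**Figure D2:**
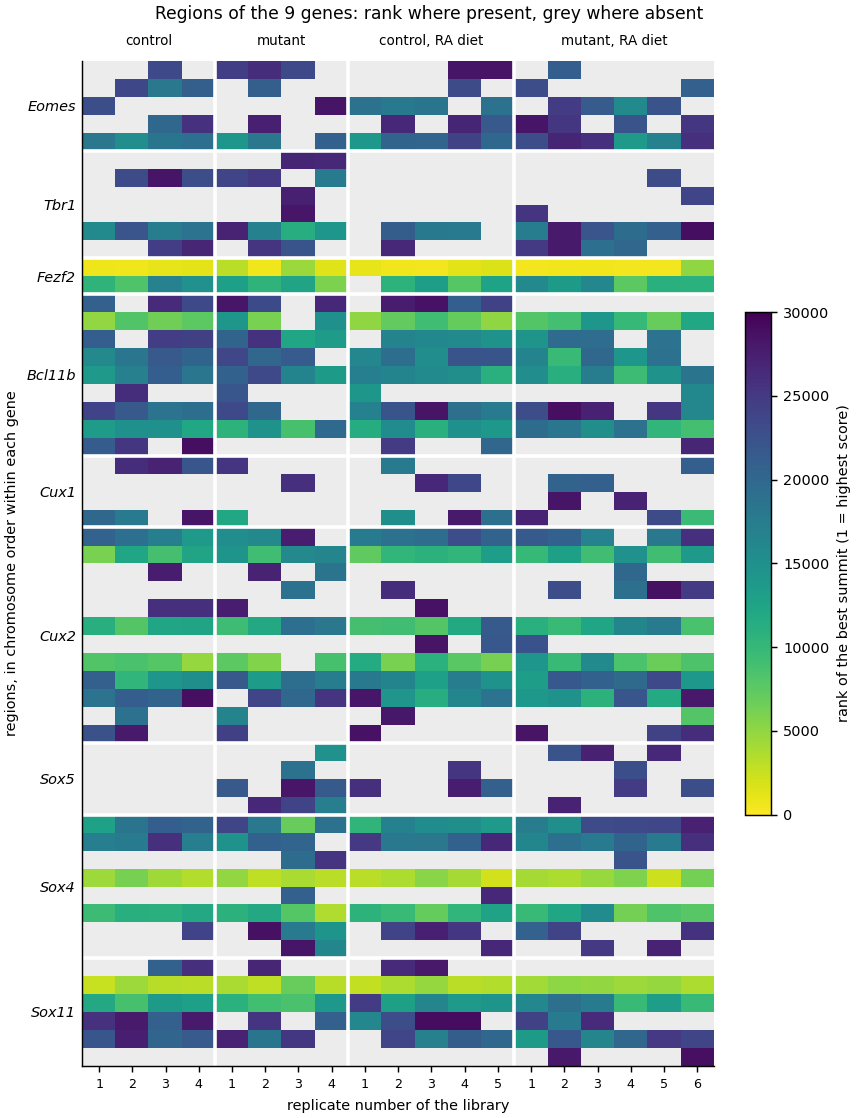
Each row is 1 of the 56 regions, in chromosome order within each gene, and each column is 1 library, grouped by genotype and diet. Colour gives the rank of the best summit (yellow is the highest score) and grey marks absence among the 29112 best summits; 11 rows are filled in all 19 columns, and the Sox5 rows are empty in the 4 controls.

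Summits per gene were compared across 10826 genes that averaged 1 summit or more in the equal-length lists (limma on log2 of summits plus 0.5, Benjamini-Hochberg over all genes). None of the 9 members was called at an adjusted p under 0.05 in any of 8 contrasts. The share of all genes called was 0% for mutants against controls and for controls on the diet against controls. It was 0.0185% for mutants on the diet against mutants, and 0.0277% for mutants on the diet against controls on the diet and against controls. It was 0.0647% for diet averaged over genotypes, and 0.00924% for genotype averaged over diets and for the interaction. Over all deposited summits, with list length as a covariate and 14782 genes, again none of the 9 was called. The background there was 0.0135% for controls on the diet against controls, 0.00676% for diet averaged over genotypes and 0% in the 6 other contrasts.

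At an unadjusted p under 0.05, 2 of 9 members passed in mutants against controls (Cux1 and Sox4, background 5.70% of genes). One passed in controls on the diet against controls (Tbr1, background 4.26%), in mutants on the diet against mutants (Cux1, 6.82%), in mutants against controls on the diet (Tbr1, 3.05%), for diet (Tbr1, 7.29%) and for genotype (Tbr1, 5.86%). Over all deposited summits 1 of 9 passed in mutants against controls (Fezf2, background 5.44%), 2 in mutants on the diet against mutants (Fezf2 and Sox11, 12.1%) and 1 for diet (Sox11, 10%). Contrasts that use the same group are not independent, and 2 of the 4 mutants are among the 3 libraries that stood apart.

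**Figure D3:**
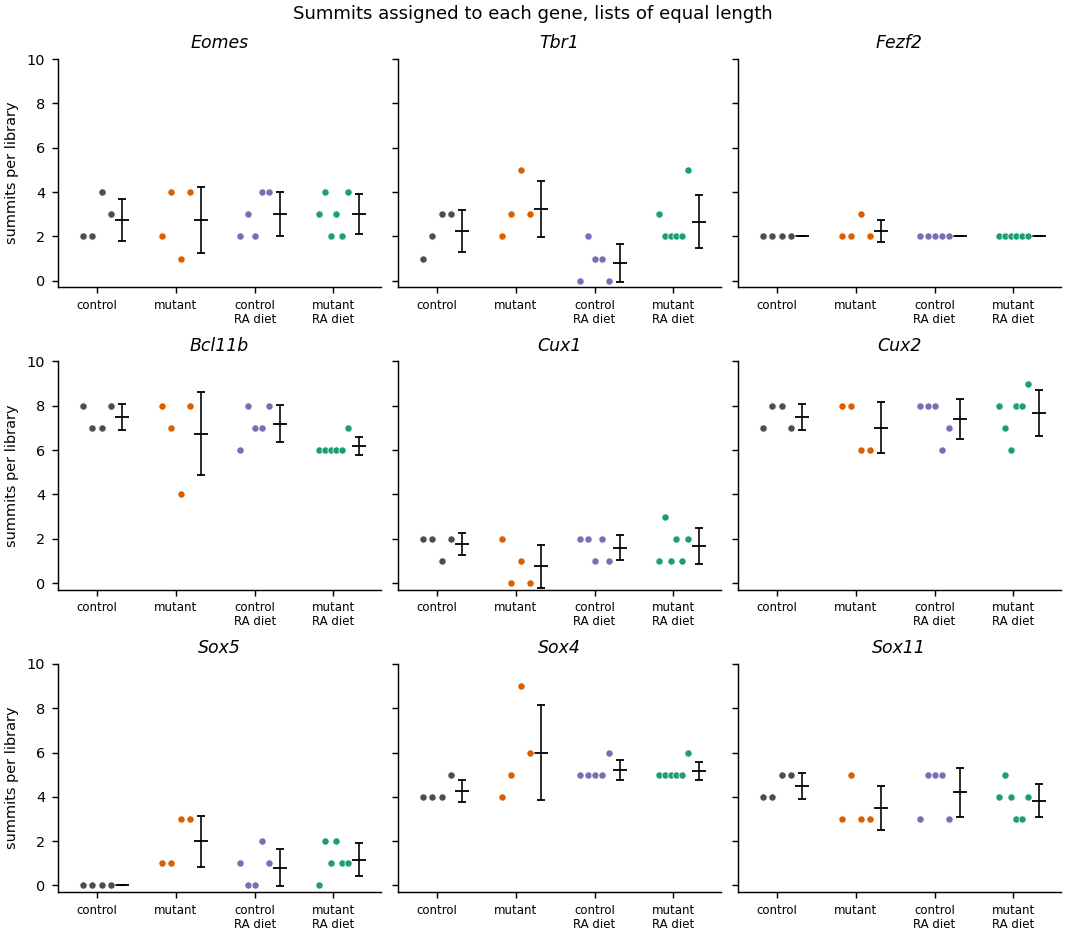
Summits assigned to each gene (y) in each library of the 4 groups (x) when every library holds its 29112 best summits; points are libraries and bars give mean and SD. Tbr1 reaches 0 in 2 of 5 controls on the diet, Sox5 is at 0 in all 4 controls, and Cux2, Bcl11b and Sox4 have the most summits.

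Eomes, the T-box factor that marks intermediate progenitors, had 2, 2, 4 and 3 summits in the controls and 2, 4, 1 and 4 in the mutants. On the diet, controls had 2, 3, 2, 4 and 4, and mutants ranged from 2 to 4 with a median of 3. All groups overlapped, and the largest difference between a pair of groups, mutants on the diet against mutants, was 0.20 ± 0.31 on the log2 scale (SE, adjusted p = 1, limma). Its 5 regions included none shared by all libraries. The most regular, chr9:118489737-118489822, lay 3647 bp past the gene's 3′ end and was missing only in mutant 3. The region 922 bp before the gene, chr9:118477124-118477404, was present in 1 of 4 controls, 1 of 4 mutants, 4 of 5 controls on the diet and 4 of 6 mutants on the diet. Diet tested within genotype gave p = 0.0767 for it (stratified exact test, adjusted p = 1).

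Tbr1, which specifies layer 6 corticothalamic neurons, had the lowest counts in controls on the diet. Its summits numbered 1, 2, 3 and 3 in controls, 2, 3, 5 and 3 in mutants, and 0, 2, 1, 1 and 0 in controls on the diet. In mutants on the diet they ranged from 2 to 5 with a median of 2. Counts of controls and of controls on the diet overlapped at 1 and 2, and those of mutants and controls on the diet at 2. Mutants exceeded controls, both on the diet, by 1.49 ± 0.40 (log2, SE, unadjusted p = 0.00196, adjusted p = 0.907, limma), and the value did not pass. Controls on the diet differed from controls by -1.28 ± 0.45 (limma, adjusted p = 0.802). Averaged over diets, mutants differed from controls by 0.98 ± 0.31 (limma, adjusted p = 0.782). With all deposited summits the counts of controls (7 to 9) and of controls on the diet (6 to 10) lay in the same range, and the same differences were -0.14 ± 0.21 (mutants against controls on the diet) and 0.36 ± 0.23 (controls on the diet against controls).

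One Tbr1 region carried part of this pattern. It lay inside the gene, 2816 bp after the listed start, at chr2:61807246-61807293. Among the 29112 best summits it was present in 3 of 4 controls, 3 of 4 mutants, 0 of 5 controls on the diet and 1 of 6 mutants on the diet. Diet tested within genotype gave p = 0.00737 (stratified exact test, adjusted p = 0.842), and controls on the diet against controls gave an exact p of 0.0476 (adjusted p = 1). At any rank the same place had a summit in 4 of 4 controls, 4 of 4 mutants, 4 of 5 controls on the diet and 5 of 6 mutants on the diet. Where present it ranked between 17503 and 28349 (median 23163) of the 29112 summits kept. Within the gene body and 5 kb around it, all 5 controls on the diet had 0 summits, while controls had 0 or 1, mutants 1 or 2 and mutants on the diet 0 to 4. The most regular Tbr1 region, chr2:61837384-61837627, lay 23391 bp past the gene and was present in 17 libraries, missing only in 2 controls on the diet. The region 240 bp inside the 5′ gene end, at chr2:61803103, was in 2 libraries, mutants 3 and 4, at a median rank of 26776.

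Fezf2, which directs subcerebral projection neurons, had 2 summits in all equal-length lists except that of mutant 3, which had 3. In the full lists it had 2 in each control, 2, 2, 6 and 5 in mutants, 2, 2, 2, 3 and 2 in controls on the diet and 2 or 3 in mutants on the diet. The higher counts were those of mutants 3 and 4, which stood apart. Given list length, mutants differed from controls by 0.62 ± 0.26 (log2, SE, limma, adjusted p = 0.82) and mutants on the diet from mutants by -0.59 ± 0.27 (limma, adjusted p = 0.391). Without mutant 3 these were 0.35 and -0.38, and without mutant 4 they were 0.44 and -0.27. Without mutant 1, labelled Foxc1 WT, the second had an adjusted p of 0.199 (limma), its lowest over the settings. Both of its regions lay within 1 kb of a gene end. That at chr14:12338121-12338258, 803 bp past the 3′ end, was the best-ranked region of the set, with a median rank of 756. Only 5.05% of the 13035 regions shared by all libraries had a better median rank, and the median over those regions was 7384. The other, chr14:12346090-12346329, at the start side of the gene, was present in 18 libraries with a median rank of 11758 and was missing in control 1 on the diet.

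The rank of the region past the Fezf2 3′ end varied widely among the mutants without the diet, and in 1 mutant on the diet it lay apart. Controls ranked it at 756, 688, 1058 and 1275, and mutants at 3055, 627, 4465 and 1463. Controls on the diet ranked it at 1162, 605, 578, 1193 and 1584, and mutants on the diet at 481, 587, 587, 512, 547 and 4928. Mutant 6 on the diet thus lay apart from its group, whose 5 other libraries ranked the region better than all 4 mutants. Mutants on the diet differed from mutants by -1.27 ± 0.58 in log2 rank, a rank ratio of 0.416 (unadjusted p = 0.0368, adjusted p = 0.258, limma over 13035 regions). In that fit 17.0% of all shared regions passed an unadjusted p under 0.05. Without mutant 6 on the diet the difference was -1.80 (limma, adjusted p = 0.0221). The number of all shared regions called in that setting is not given here, so the pass is not read as particular to Fezf2. Over the alternative settings this number ran from 0 to 831 in this contrast, the highest with the replicate block. The Fezf2 difference was -1.03 without mutant 1 (limma, adjusted p = 0.339) and -0.85 without mutant 3 (limma, adjusted p = 0.579). It was -0.70 without the 3 libraries that stood apart (limma, adjusted p = 0.749). The difference therefore passed or missed the threshold with the choice of libraries.

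Bcl11b, a zinc finger factor of subcerebral neurons, had 8, 7, 7 and 8 summits in controls, 8, 7, 4 and 8 in mutants and 6, 8, 7, 7 and 8 in controls on the diet. Mutants on the diet had 6 in 5 libraries and 7 in the remaining 1, at or below all controls. Mutants on the diet differed from controls by -0.26 ± 0.14 (log2, SE, adjusted p = 0.833, limma). Of its 9 regions, those at chr12:107969978-107970298, inside the gene, and chr12:108006364-108006436, 2255 bp before it, were in all libraries, at median ranks of 16411 and 14748. The region at its 5′ gene end, chr12:108004083-108004202, was in 16 libraries, at a median rank of 21960.

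A region 30965 bp past the Bcl11b gene, chr12:107879320-107879557, was absent from the best summits of all 6 mutants on the diet. It was present in 3 of 4 controls, 3 of 4 mutants and 4 of 5 controls on the diet. Two-sided Fisher's exact test gave p = 0.0333 against mutants, 0.0152 against controls on the diet and 0.0333 against controls, and the adjusted p was 1 each time. At any rank it was found in 4 of 4, 4 of 4, 5 of 5 and 5 of 6 libraries of the groups in that order. Its ranks, where present, ran from 20857 to 28533 (median 25188).

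Across regions, 0 of 56 members were called in any of 7 presence comparisons after adjustment, against 0% of all 44878 regions. In Fisher's exact tests of pairs of groups, the smallest p was 0.0286 for mutants against controls and 0.00216 to 0.00794 in the other pairs. With adjustment over 44878 regions, groups this small could hardly give a call. The absence of calls therefore says little about whether regions differ. At an unadjusted p under 0.05, the Tbr1 region inside the gene was the 1 member in controls on the diet against controls (background 2.62%) and for diet within genotype (4.15%). The region past Bcl11b was the 1 member in mutants on the diet against mutants (1.21%), against controls on the diet (0.305%) and against controls (2.75%).  The 3 comparisons of mutants on the diet share those 6 libraries.

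Cux1 and Cux2, homeodomain factors of upper-layer neurons, differed in how regular their sites were. Cux1 had 2, 2, 1 and 2 summits in controls, 2, 0, 1 and 0 in mutants and 2, 2, 1, 2 and 1 in controls on the diet. Its range in mutants on the diet was 1 to 3 with a median of 1.5. All groups overlapped. Mutants differed from controls by -1.16 ± 0.45 (log2, SE, unadjusted p = 0.0205, adjusted p = 0.755, limma), and mutants on the diet from mutants by 1.06 ± 0.41 (adjusted p = 0.579). Without mutant 1, whose genotype label is Foxc1 WT, the adjusted p-values of these 2 differences were 0.217 and 0.159 (limma). Both were the lowest over the settings, and neither passed. In the full lists Cux1 had 3 summits in mutant 4 and 33, 35 and 18 in the 3 other mutants, and mutant 4 on the diet had 2. In the gene body and 5 kb around it, Cux1 had 7, 7, 5 and 7 summits in controls and 6, 4, 5 and 4 in mutants. The region 281 bp inside its 5′ gene end, chr5:136567276-136567342, was in 10 libraries, at a median rank of 19400.

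Cux2, which has 12 regions in the equal-length lists, was steady. It had 7, 8, 8 and 7 summits in controls, 8, 8, 6 and 6 in mutants, 8, 8, 8, 6 and 7 in controls on the diet and 6 to 9 (median 8) in mutants on the diet. The largest difference between a pair of groups was 0.13 ± 0.11 (log2, SE, mutants on the diet against mutants, adjusted p = 0.928, limma). Of the 12 regions, 11 were inside the 192 kb gene. Those shared by all libraries were chr5:121889420-121889590, chr5:121948770-121948843 and chr5:121981873-121982009, at median ranks of 10713, 11812 and 17337. The region at its start, chr5:122050074-122050181, was present in 1 library of each group.

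Sox4 and Sox11, SoxC factors of differentiating neurons, held the steadiest start sites. Sox4 had 4, 4, 4 and 5 summits in controls, 4, 5, 9 and 6 in mutants and 5, 5, 5, 5 and 6 in controls on the diet. Of the mutants on the diet, 5 libraries had 5 and mutant 6 had 6. Mutants differed from controls by 0.40 ± 0.16 (log2, SE, unadjusted p = 0.0214, adjusted p = 0.758, limma), and the counts overlapped at 4 and 5. The highest count, 9, was that of mutant 3, and without it the difference was 0.20 (limma, adjusted p = 1). Without mutant 1, labelled Foxc1 WT, the adjusted p of mutants against controls was 0.217 (limma), the lowest over the settings. The region at the Sox4 start, chr13:28953665-28953823, had a median rank of 4024, and 27.6% of shared regions ranked better. The 2 other shared regions, chr13:28959691-28959777 (6035 bp before the gene) and chr13:28860095-28860280 (88732 bp past it), had median ranks of 10228 and 18046.

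The distal Sox4 region ranked at 12831, 18485, 21048 and 20417 in controls and at 23757, 18046, 6950 and 18649 in mutants. It ranked at 10411, 16809, 15451, 15116 and 13930 in controls on the diet, and between 15092 and 27248 (median 23245) in mutants on the diet. Mutants on the diet ranked it worse on average than controls on the diet, with overlap, and mutant 3 ranked it best of all. That difference was 0.58 ± 0.25 in log2 rank (unadjusted p = 0.0257, adjusted p = 1, limma), and the interaction of genotype and diet was 0.80 ± 0.38 (limma, unadjusted p = 0.0439, adjusted p = 0.901). Without mutant 3 the interaction was 0.42 (limma, adjusted p = 1).

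Sox11 had 4, 4, 5 and 5 summits in controls, 3, 5, 3 and 3 in mutants and 3, 5, 5, 5 and 3 in controls on the diet, and 3 to 5 (median 4) in mutants on the diet. All groups overlapped, and mutants differed from controls by -0.34 ± 0.20 (log2, SE, adjusted p = 0.793, limma). Its region at the start, chr12:27342679-27342814, had a median rank of 3749. Group medians there were 3130 in controls, 3509 in mutants, 3465 in controls on the diet and 4554 in mutants on the diet. With all summits, and given list length, Sox11 was 0.53 ± 0.18 higher in mutants on the diet than in mutants (limma, unadjusted p = 0.00942, adjusted p = 0.268), at 3 to 12 and 4 to 12 summits. Without the list length in the fit this difference was -0.04.

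The second shared Sox11 region, chr12:27357230-27357605, 14699 bp before the gene, ranked at 11942, 8727, 13600 and 13115 in controls and at 10894, 9072, 8630 and 14022 in mutants. Controls on the diet ranked it at 24610, 12903, 16309, 13726 and 14504, and mutants on the diet between 9643 and 18980 (median 14640). The diet libraries ranked it lower on average, with overlap. Diet averaged over genotypes was 0.42 ± 0.18 in log2 rank (unadjusted p = 0.0267, adjusted p = 0.227, limma).

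**Figure D4:**
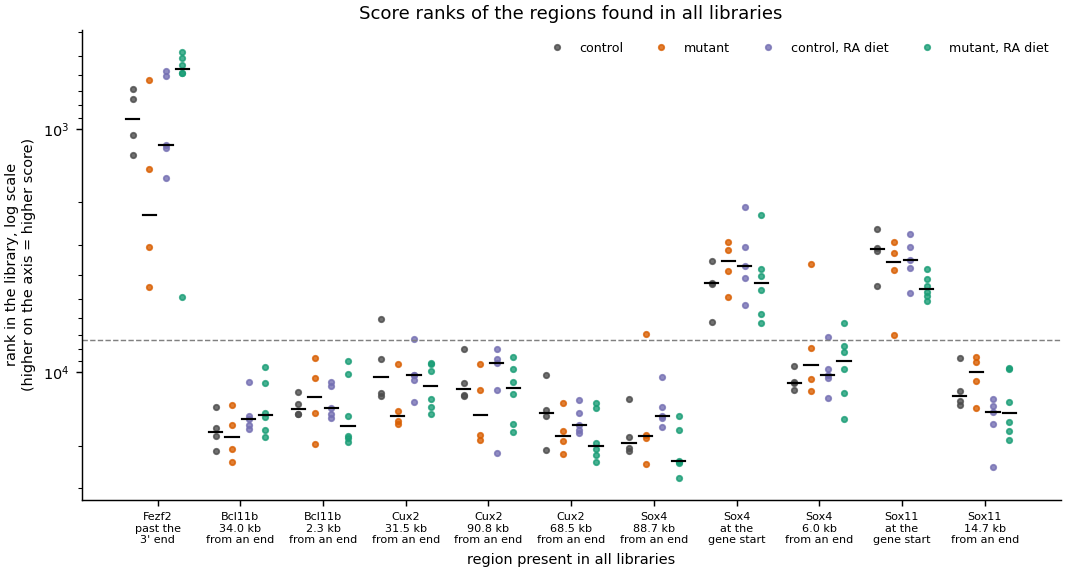
Ranks (y, log scale, drawn with the highest scores at the top) of the 11 regions present in all 19 libraries (x), with 1 point per library, coloured by group, black bars at group medians and a dashed line at the median rank of all shared regions, 7384. Group medians lie above that line only for the Fezf2 region and the start regions of Sox4 and Sox11, and mutant 6 on the diet is the low green point of Fezf2.

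Across score ranks, 0 of 11 member regions were called in 8 contrasts after adjustment. The share of all 13035 shared regions called was 0.00767% for mutants on the diet against mutants, 0.414% for diet averaged over genotypes and 0% in the 6 other contrasts. At an unadjusted p under 0.05, 1 of 11 passed in mutants on the diet against mutants (Fezf2, background 17.0%) and in mutants against controls on the diet (the distal Sox4 region, 1.73%). One also passed in the interaction (the same Sox4 region, 4.48%) and for diet (Sox11, 16.9%). The median log2 rank difference of the 11 regions lay between -0.05 and 0.18, and that of all shared regions between -0.02 and 0.05.

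Sox5, an SRY-box factor that controls the timing of deep-layer neurons, had few summits in the equal-length lists. It had 0 summits in all 4 controls, 1, 1, 3 and 3 in mutants, 1, 0, 0, 2 and 1 in controls on the diet, and 0, 2, 1, 2, 1 and 1 in mutants on the diet. The share of all genes with 0 summits in controls and summits in all mutants was not computed. These counts are therefore not read as particular to Sox5. The higher mutant counts were those of mutants 3 and 4, which are among the libraries that stood apart. The exact permutation test gave p = 0.0286 for mutants against controls, the smallest that 4 against 4 allows, and p = 0.0476 for mutants on the diet against controls (two-sided). Adjusted over 15 such tests of Sox5, both were 0.179, with no adjustment for the other members or genes. These tests were chosen after the counts were seen, so their p-values are no support for a difference.

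The limma fit had no usable standard error for 31 genes with the fewest summits, Sox5 among them. With 0 summits in the controls, Sox5 met the filter of an average of 1 summit only through the other groups. The limma p-values of Sox5 given here are therefore no support for a difference. For mutants against controls, Sox5 stayed in the test under 24 alternatives, against 31 for Sox4. Without the 3260 genes whose count was alike in all libraries, the limma fit over 7566 genes gave Sox5 an unadjusted p of 0.000474 for mutants against controls (adjusted p = 0.533). This limma fit gave 0.00384 for mutants on the diet against controls (adjusted p = 0.261), 0.00101 for genotype averaged over diets (adjusted p = 0.476), 0.0387 for controls on the diet against controls (adjusted p = 0.779) and 0.0209 for the interaction (adjusted p = 0.878). Sox5 is therefore left out of the members counted here. In this fit Cux1 and Sox4 passed the unadjusted threshold in mutants against controls (background 8.64%). Tbr1 passed it in controls on the diet against controls (6.23%) and for genotype (8.10%). No member besides Sox5 passed in mutants on the diet against controls (9.82%) or in the interaction (4.53%). The fitted log2 differences of Sox5 against controls were 2.20 for mutants, 1.10 for controls on the diet and 1.57 for mutants on the diet. They were -1.73 for the interaction and 1.33 for genotype. Against counts of 0 they depend on the added 0.5 and are no bound on the size.

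With all deposited summits the controls and mutants overlapped. Controls had 16, 22, 27 and 30 summits and mutants 27, 33, 30 and 10, with controls on the diet at 13 to 24 and mutants on the diet at 2 to 25. The absence in controls therefore held for the 29112 best summits alone. Its region near the 5′ gene end, chr6:144781703-144781771, was among the best summits in 0 of 4 controls, 3 of 4 mutants, 3 of 5 controls on the diet and 2 of 6 mutants on the diet, and at any rank in all 19 libraries. Where present it ranked from 20804 to 28162.

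The 100 kb rule leaves 754 kb of the 954 kb Sox5 gene without a nearest end, so summits inside it were counted as well. In the gene body and 5 kb around it, controls had 15, 14, 16 and 12 summits and mutants 14, 12, 25 and 27. Controls on the diet had 15, 17, 19, 21 and 19, and mutants on the diet had 21, 22, 22, 21, 21 and 18. Mutants split into libraries at control level and mutants 3 and 4. How many other genes separate mutants on the diet from controls was not counted, so these counts are not read as particular to Sox5. Mutants on the diet against controls gave p = 0.00952 by the exact permutation test (15 tests, adjusted p = 0.143), and controls on the diet against controls gave p = 0.0476 (adjusted p = 0.179). In the limma fit of this count the former difference was 0.54 (log2, adjusted p = 0.661). With all deposited summits, where lists also differ in length, the means were 68.2 ± 15.6 for controls (SD, n = 4) and 43.7 ± 17.8 for the diet-fed mutants (SD, n = 6).

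**Figure D5:**
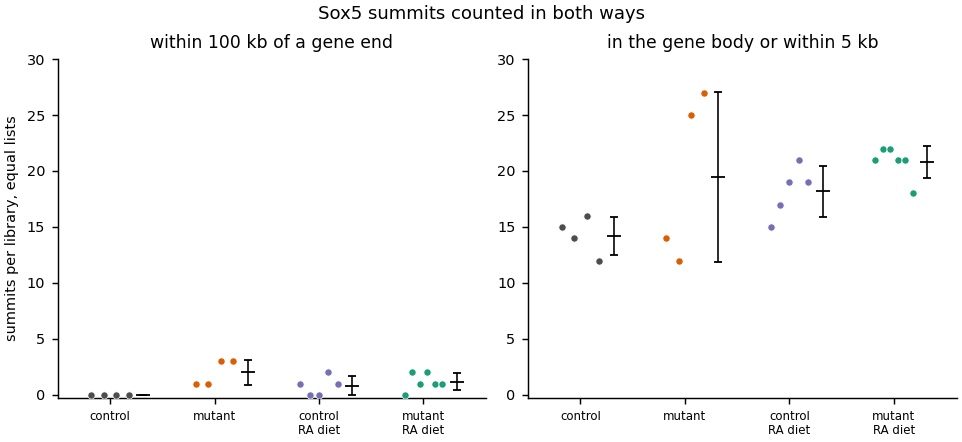
Sox5 summits per library among the 29112 best summits, by group, counted within 100 kb of a gene end (left) and in the gene body or within 5 kb (right); points are libraries and bars give mean and SD. On the right the 6 mutants on the diet are at 18 to 22, the 4 controls at 12 to 16, and 2 of the 4 mutants reach 25 and 27.

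Inside Sox5 and over 100 kb from its ends lay 28 regions, 9 of them in all 19 libraries. The highest-scoring, chr6:144056881-144057130, had a median rank of 2108. Of the 28, 7 reached an unadjusted p under 0.05 in at least 1 of 7 presence comparisons, which is 25% of them, and 0 were called. The share was 7.75% of all 44878 regions, and the inner regions were singled out after their counts were seen. Regions at chr6:144361510-144361914, chr6:144389459-144389748 and chr6:144454366-144454529 were each present in 0 of 4 controls, 2 of 4 mutants, 3 of 5 controls on the diet and 5 of 6 mutants on the diet. In each case the mutants were 3 and 4, and the missing mutant on the diet was 6. Fisher's exact test of mutants on the diet against controls gave p = 0.0476 for each (adjusted p = 1). Cux1 had 5 such inner regions, 2 of them in all libraries, and none reached that threshold.

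Occupancy, the percentage of a gene's regions present in a library, ordered the members over all 19 libraries in the equal-length lists, where Fezf2 has 2 regions. It was 97.4% ± 11.5 for Fezf2, 72.5% ± 14 for Bcl11b, 65.8% ± 14.1 for Sox11, 62.5% ± 11.8 for Sox4 and 60.5% ± 7.27 for Cux2 (SD, n = 19). Eomes had 54.7% ± 18.7, Tbr1 34.2% ± 19.6, Cux1 30.3% ± 17.8 and Sox5 25% ± 25, against 63.3% ± 2.26 for all regions. Neighbours in this order differed by less than 1 SD, apart from Fezf2 and Bcl11b and from Eomes and Tbr1. Between groups, the widest ranges of the mean were those of Sox5, from 0% in controls to 50% ± 28.9 in mutants (SD, n = 4), and Tbr1, from 13.3% ± 13.9 in controls on the diet (SD, n = 5) to 54.2% ± 21 in mutants (SD, n = 4). The order did not hold in the full lists. There occupancy was 60.7% for Sox11, 56.5% for Cux2, 55.3% for Fezf2, 54.1% for Tbr1 and 53.9% for Sox4. It was 53.5% for Bcl11b, 47.6% for Cux1, 47.4% for Sox5 and 41.8% for Eomes, against 51.5% for all regions. In the full lists Sox5 occupancy was 57.7% ± 14 in controls and 59.6% ± 23.4 in mutants (SD, n = 4).

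Other genes of the same steps were read from 2 lists. Of 20 intermediate progenitor genes, 9 had an end summit in all libraries, among them the proneural factors Neurog1 and Neurod1, the antiproliferative gene Btg2 and the Notch ligand gene Dll1. One, Tfap2c, had none. Of 30 projection neuron genes 14 had one, such as Neurod6, Tle4, Rorb and Pou3f2, and Mef2c, Crym and Slc17a7 had none in any library. Both shares (45% and 46.7%) stood beside 36.6% of all genes and 33.3% (3 of 9, Fezf2, Sox4 and Sox11) of the members. In the limma fits, 0 of 20 and 0 of 28 tested genes of these lists were called in any of 8 contrasts. At an unadjusted p under 0.05, 1 gene of each list was lower in mutants than in controls, where 5.70% of all genes passed in either direction. In mutants against controls the median log2 difference was -0.21 for the intermediate progenitor list, with 13 of 20 genes lower and 5 higher, while it was 0.04 for the projection neuron list, -0.09 for the 9 members and 0 over all genes. In the full lists it was 0.01 for the intermediate progenitor list and 0.16 for the projection neuron list.

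The genes whose summit counts were most like those of the 3 members with the most summits were sought on other chromosomes, over the 19 libraries. They were Cibar2 (Pearson r = 0.81) and Gse1 (0.80) for Cux2, Scarb1 (0.84) and Frmd8 (0.82) for Bcl11b, and Wls (0.82) and Pisd (0.78) for Sox4. Between 7059 and 7257 genes were compared with each, and the counts share library and list length.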

How the data were processed

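The deposited files list ATAC-seq peak summits, 1 file for each of 19 libraries, and the score column holds −log10 q values, as MACS2 writes them. The submitters' processing notes name BWA, MACS2, Signac and DiffBind with mm10 and GRCm38. Versions and settings are not given in the sources used here. The authors called summits per library, so list length follows depth, and each list was reduced to its 29112 highest scores, the length of the shortest.

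Summits were assigned to the nearest end of 21887 RefSeq GRCm38.p6 protein-coding genes within 100 kb and chained into regions at 200 bp. Presence was tested by Fisher's exact test, or stratified by genotype or diet. Log2 of summits plus 0.5 and log2 ranks were tested with limma 3.58.1 (R 4.3.3, trend and robust), with Benjamini-Hochberg adjustment over all features. The fits were also run on simulated data. The genes given a change there averaged more summits than Eomes, Tbr1, Fezf2, Cux1 and Sox5, so counts as low as theirs were not covered. Python 3.11.15, pandas 2.3.3 and scipy 1.17.1 were used. Groups follow the sample titles. The naming rule took all 9 members, for each its best-ranked region at a gene end and best shared distal region, regions with the smallest p, and the 2 most correlated genes of the 3 members with the most summits. Further regions, and the example genes of the lists, were chosen after their values were seen. The exact tests of Sox5 were added after its limma error proved unusable. Alternatives covered list length, assignment, chaining, pseudocount, filters, single libraries left out and a replicate block. The members and lists were chosen with earlier results of these data known. Region sequences were not used here, since no genome was given. Read depth is unknown, and scores carry no counting interval.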

Additional observations from a re-analysis of the deposited data

Results flagged for a closer look

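Of 116 gene counts and ranks in groups of 4 to 6 libraries, 13 had 1 library far from the others by Dixon's 95% criterion, which chance meets in about 1 of 20 groups. Most are counts that differ by 1 summit where the others were equal. In the equal-length lists, mutant 6 on the diet had 5 Tbr1 summits (others 2 to 3), 7 Bcl11b summits (others 6) and 6 Sox4 summits (others 5). Mutant 3 had 3 Fezf2 summits (others 2), and mutant 2 had 5 Sox11 summits (others 3). Control 3 had 1 Cux1 summit (others 2), control 4 had 5 Sox4 summits (others 4) and control 5 on the diet had 6 (others 5). Over all deposited summits, control 4 and mutant 2 on the diet each had 3 Fezf2 summits (others 2), and mutant 4 had 16 Bcl11b summits (others 26 to 28). In ranks, the region past the Fezf2 3′ end stood at 4928 in mutant 6 on the diet (others 481 to 587). The Cux2 region at chr5:121948770-121948843 stood at 21486 in control 5 on the diet (others 8021 to 11812).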

How the results depend on the processing

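Among counts of called members and occupancies, 842 alternatives kept the value and 6 moved it. Among differences of single genes and regions and calls over all features, 1175 kept their side, 2 came to pass the threshold and 15 reversed, and 256 counts over all features moved. With the replicate block, 1 member region, that past the Fezf2 3′ end, was called in the ranks of mutants on the diet against mutants, at -1.89 in log2 rank. Leaving out single libraries gave 0 to 1 called, the 1 without mutant 6 on the diet. Same-numbered libraries did not deviate together (r from -0.14 to 0.16), so the numbers were not taken as pairs. Occupancy over all summits was 54.1% for Tbr1, 55.3% for Fezf2 and 53.5% for Bcl11b, and 64.9% for Fezf2 with 100-bp chaining. In the gene counts, all deposited summits without the length covariate turned Tbr1 to 0.0578 (controls on the diet against controls), -0.4715 (mutants against controls on the diet) and -0.1808 (genotype), and Cux1 to -0.5993 (mutants on the diet against mutants). They turned Sox5, whose fitted values stand with its counts, to -0.0195 (mutants against controls), -0.3571 (controls on the diet against controls), -1.1671 (mutants on the diet against controls) and -0.4147 (genotype). With the shortest list left out and the others lengthened to 48323 summits, Sox5 gave -0.0323 (mutants against controls) and 0.0645 (interaction). Among full-list results, leaving out the 3 libraries that stood apart turned Fezf2 to -0.0424 (mutants against controls) and 0.2411 (mutants on the diet against mutants). Without the covariate Sox11 was -0.0353 (mutants on the diet against mutants) and -0.1069 (diet), and -0.1056 for diet by gene body. The cause was not tested. Calls over all features moved more than those of members, of which none was called elsewhere. In equal-length gene counts they went from 7 to as many as 98 for diet without the 3 libraries that stood apart. With only the groups compared they went from 0 to 30 (controls on the diet against controls) and from 3 to 24 (mutants on the diet against controls), and with the longer lists, less the shortest, from 2 to 11 (mutants on the diet against mutants), where leaving out that library alone gave 1. With the block 0 genes were called in each contrast. In full lists the highest count was 23, for diet, against 1. In ranks they went from 1 to 831 (mutants on the diet against mutants) and from 0 to 562 (mutants on the diet against controls) with the block, from 54 to 792 for diet without mutant 6 on the diet, and from 0 to 338 for mutants against controls without mutant 2. In presence 0 were called under all settings, and in pairs of groups this small a call could hardly be reached. Exact tests of Sox5 and the setting without 3 libraries were chosen after seeing the data. Read depth is unknown, and short lists limit all counts.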
